A study of Homo sapiens with 8 samples.

Results

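H3K27me3 was followed over every protein-coding gene of PC9 cells, a human lung adenocarcinoma line, after the EZH2 inhibitor GSK126 or the solvent DMSO. A gene was taken as its annotated body plus 2 kb upstream on GRCh37, which is the hg19 build of the lists, and 20136 genes with a symbol of their own were left of 20163 protein-coding records. Of these genes, 5525 carried H3K27me3 in both DMSO replicates. With GSK126 in the spike-in normalization, 1760 of them lost the mark in both replicates, 1918 held a shorter stretch of it and 624 kept it. Short islands that lay inside genes were lost most often, and the genes that kept the mark sat in long domains that ran over the gene start. PTPRN2 and CDH4 kept most of their cover, TENM4 and DPP6 held a shortened cover, and compact genes such as MMP9 and HTR3C went from complete cover to none.

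EZH2 is the catalytic subunit of Polycomb repressive complex PRC2, which places methyl groups on lysine 27 of histone H3. The trimethylated form marks silent genes, above all regulators of development and genes of other cell lineages, and it often spreads from CpG-rich gene starts into broad domains. GSK126 competes with the methyl donor S-adenosylmethionine at EZH2, so the mark is diluted as cells divide and is also removed by demethylases.

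H3K27me3 was measured by ChIP-seq in 2 libraries of PC9 cells with DMSO and 2 with GSK126 at 1 μM for 5 days, out of 8 libraries in the series. During treatment the medium held less serum than for growth. Each reaction also held D. melanogaster chromatin and an antibody against the fly histone variant H2Av, so that fly tags could serve as a reference. By the study's account the replicates were biological ones, but the labels do not say whether they were separate cultures or treatments. H3K4me3 lists from the 2 DMSO libraries of that antibody were used only to tell which gene starts carried this mark of active or poised promoters.

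The authors deposited islands, which are runs of 200-bp windows with more tags than a random background gives, joined by the SICER caller across gaps of up to 600 bp. Every H3K27me3 library had a list at equal human tag number within its replicate, called standard here, and a list after tags were removed according to the fly tags, called spike-in. The tag density read from the island scores was 1.65 tags per window with DMSO against 0.382 with GSK126 in replicate 1 of the spike-in lists, and 2.33 against 0.455 in replicate 2, which is 23.1% and 19.6% of DMSO. These shares equal the ratios that the study's supplement gives for fly tags mapped to the whole fly genome. Its primary method, which counts tags in H2Av-bound regions only, gave higher ratios, above all in replicate 2. In the standard lists the density was 1.36 in replicate 1 and 1.55 in replicate 2 for both treatments. A gene was called marked when islands covered at least 1 window of 200 bp. With GSK126 it was lost when less than that was left, kept when at least 80% of its DMSO covered length was left, and shrunk in between. A class was counted when both replicates gave it.

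In replicate 1 of the spike-in lists, 5936 genes were marked with DMSO and 3530 with GSK126, and in replicate 2 the counts were 5980 and 3402. The treatments did not overlap, and the log2 ratio of marked genes was -0.78 ± 0.045 (SD, n = 2). With 4 libraries an exact two-sided permutation test cannot give less than 0.333, which is the p it gave. Genes marked with DMSO in both replicates were 27.4% of all genes. Of them, 31.9% were lost in both replicates, 34.7% were shrunk and 11.3% were kept, and the replicates gave different classes for 1223. Taken singly, the replicates lost 40.9% and 43.4% of the genes marked with DMSO, shrank 43.5% and 39.5% and kept 15.6% and 17.1%. The order of lost and shrunk genes thus differed between replicates, and the kept share was the lowest in both. Among the genes marked with DMSO in both replicates, 86.7% and 81.8% of those lost in replicates 1 and 2 were lost in the other too. Of their kept genes 68.0% and 61.5% were shared, and the largest discordant group was 336 genes shrunk in replicate 1 and kept in replicate 2. Genes share islands with their neighbours: the 1760 lost genes rested on 1588 and 1590 separate islands, and the 624 kept genes on 540 and 531.

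**Figure D1:**
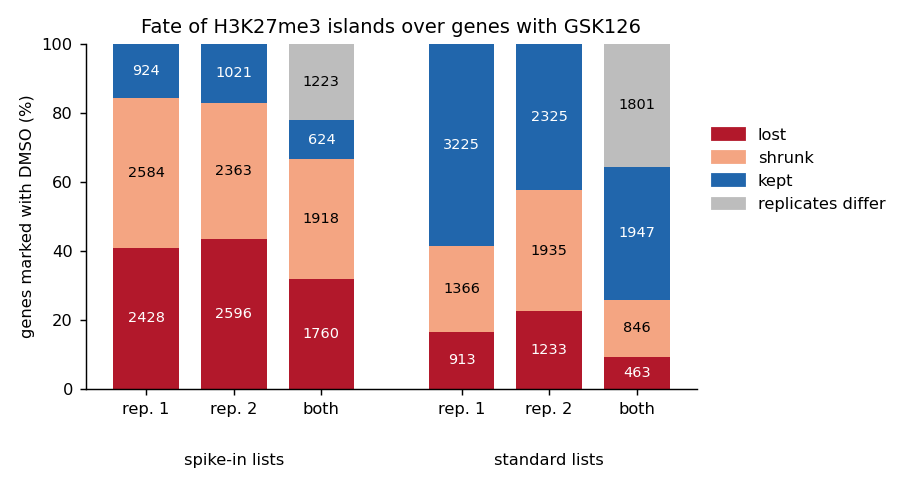
Share of genes marked with DMSO (y axis, %) that were lost, shrunk or kept with GSK126, for each replicate and for both together; numbers in the bars are genes. Lost genes make up 40.9% and 43.4% in the spike-in replicates and 16.6% and 22.4% in the standard replicates.

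At equal tag number fewer genes were lost and the replicates lay further apart. Of the 20136 genes, 25.1% were marked with DMSO in both standard lists. Of those 5057 genes, 9.16% were lost in both replicates, 16.7% were shrunk and 38.5% were kept. The replicates kept 58.6% and 42.3%, so the spread of the kept share was 11.5 percentage points (SD, n = 2), against 1.07 in the spike-in lists. The lowest island score also differed between the standard replicates, at 56.7 and 38.2 for both treatments, and its part in that spread was not tested. Of the genes lost in the spike-in lists, 412 were lost at equal tag number too, 154 were shrunk and 91 were kept. Another 614 differed between replicates there, 374 were marked with DMSO in 1 replicate, 107 were unmarked and 8 were gained. Of the 624 kept genes, 607 were kept in both kinds of list. Taking tags away from the same GSK126 library, from the standard to the spike-in list, by itself removed 1265 of 4777 marked genes in replicate 1 and 1008 of 4392 in replicate 2. Loss of methylation and the lower tag number that stands for it cannot be told apart in a single island list.

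The lost genes with the highest share of DMSO cover were compact genes that lay wholly within an island. MMP9, the gelatinase that degrades type IV collagen, lies at chr20:44637547-44645200 on the plus strand. Its span of 9.65 kb was 100% covered in both DMSO replicates and 0% in both GSK126 replicates. HTR3C, a subunit of the serotonin-gated channel family at chr3:183770835-183778461, went from 9.63 kb to 0 in the same way. So did NXNL1, a photoreceptor survival factor, with 7.5 kb, and ADM2, a vasodilating peptide of the calcitonin family, with 6.9 kb. PNMT, which converts noradrenaline to adrenaline, lost 4.5 kb, and GPR6, a G protein-coupled receptor of the brain, lost 4.46 kb. These values follow from the rule that chose the 6 genes. In the standard lists they parted. ADM2 stayed 100% covered in both GSK126 libraries, MMP9 was covered for 100% and 60.1%, and NXNL1 for 65.3% and 0%.

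The promoters of lost and kept genes are shown to compare their CpG content, since CpG-rich starts are where PRC2 is usually recruited. Each is the 250 bases before a RefSeq gene start, found letter for letter in GRCh37, 5′ to 3′ on the gene's strand, with CpG pairs in capitals. HTR3C (chr3:183770585-183770834, plus strand) and ADM2 (chr22:50919722-50919971, plus strand) were lost. CDH4 (chr20:60074227-60074476, plus strand) and RBFOX3 (chr17:77632827-77633076, minus strand) were kept.
HTR3C: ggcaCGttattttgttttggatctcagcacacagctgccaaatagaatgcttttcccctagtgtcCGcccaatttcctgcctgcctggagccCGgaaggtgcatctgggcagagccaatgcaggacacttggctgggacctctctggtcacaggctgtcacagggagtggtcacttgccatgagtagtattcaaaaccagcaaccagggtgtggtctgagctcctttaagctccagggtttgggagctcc
ADM2: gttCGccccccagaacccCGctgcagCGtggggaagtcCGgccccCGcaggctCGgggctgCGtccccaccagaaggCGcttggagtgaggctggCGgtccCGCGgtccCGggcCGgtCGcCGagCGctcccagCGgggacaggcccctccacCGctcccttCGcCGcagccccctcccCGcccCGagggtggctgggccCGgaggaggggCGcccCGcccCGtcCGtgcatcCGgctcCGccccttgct
CDH4: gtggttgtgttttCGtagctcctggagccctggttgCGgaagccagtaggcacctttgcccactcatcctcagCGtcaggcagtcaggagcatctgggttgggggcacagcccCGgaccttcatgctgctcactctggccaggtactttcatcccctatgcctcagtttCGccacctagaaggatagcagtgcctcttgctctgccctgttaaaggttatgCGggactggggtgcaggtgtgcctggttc
RBFOX3: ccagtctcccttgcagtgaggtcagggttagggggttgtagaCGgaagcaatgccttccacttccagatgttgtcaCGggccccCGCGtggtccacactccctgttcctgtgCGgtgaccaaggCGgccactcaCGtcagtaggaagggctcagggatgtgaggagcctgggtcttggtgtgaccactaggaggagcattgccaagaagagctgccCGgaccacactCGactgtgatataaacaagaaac
The HTR3C promoter holds 3 CpG and the ADM2 promoter 29, and at least as many are held by 76.4% and 13.6% of the 27305 promoters listed by RefSeq (GRCh38.p14). CDH4 has 6 and RBFOX3 has 9, as do at least 61.3% and 53.6%. Both lost promoters were covered over all 250 bases with DMSO and over 0 with GSK126 in the spike-in lists of both replicates, and both kept promoters were covered over 250 bases in all 4 libraries. ADM2 also carried H3K4me3 there in both DMSO libraries, and the others did not. The CDH4 start used here lies 247160 bases inside the annotated gene and the RBFOX3 start lies outside its 5′ end.

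The CpG content of the start varied widely within each class. From 250 bases before to 50 after the annotated start, lost genes had a median of 10 CpG, shrunk genes 16 and kept genes 13, against 19 in genes never marked with DMSO. Genes with 0 to 4 CpG were lost in 37.4% of cases and those with 30 or more in 26.1%, with kept shares of 9.06% and 13.0%. The longest DMSO island had a median of 7.8 kb in the former and 10.6 kb in the latter.

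The lost genes with the longest DMSO cover were mostly large genes marked over a small share of their span. CNTNAP5, a neurexin-like protein at chr2:124782864-125678796, had 101.1 and 170 kb covered with DMSO, or 11.3% and 18.9% of its span, and 0 in both GSK126 libraries. ASTN2, an astrotactin of neuronal migration, had 62.1 and 74.3 kb, and LRMDA had 36.6 and 52.2 kb, with 0 left in either. SHANK2, a scaffold of excitatory synapses, fell from 47.8 and 47.2 kb to 0. BCAS4 was the most densely covered, with 49.5% and 55.8% of 84.3 kb, and ANKFN1 had 36.2 and 101.2 kb. The longest single island over these 6 genes was between 7.4 and 13.0 kb. SHANK2 and ANKFN1 were lost at equal tag number too. In CNTNAP5, 48.0 and 5.2 kb remained there of 114 and 126 kb.

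Shrunk genes with the longest cover were giants of the nervous system. SDK1, a sidekick adhesion protein of synapses at chr7:3340884-4308632, held 696 and 712 kb with DMSO and 502 and 509 kb with GSK126. TENM4, a teneurin receptor, went from 695 and 733 kb to 410 and 372 kb. DLGAP2, a postsynaptic scaffold, went from 681 and 709 kb to 484 and 546 kb. CAMTA1, a calmodulin-binding transcription activator, fell from 643 and 667 kb to 458 and 485 kb, and DPP6, an auxiliary subunit of A-type potassium channels, from 573 and 635 kb to 274 and 241 kb. RBFOX1, a neuronal splicing regulator, lost most of its cover, from 662 and 931 kb to 140 and 82.2 kb, and kept 15.0% on average. The lower DMSO value lay above the higher GSK126 value in all 6, which follows largely from the rule that chose them as shrunk. At equal tag number 4 of the 6 were classed as kept, and RBFOX1 as shrunk.

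Kept genes with the longest cover lay almost wholly inside domains. PTPRN2, a dense-core vesicle phosphatase-like protein at chr7:157331750-158380515, held 962 and 980 kb with DMSO and 868 and 904 kb with GSK126. CDH4, the retinal cadherin, held 671 and 676 kb and then 623 and 609 kb. RBFOX3, known as the neuronal marker NeuN, held 407 and 407 kb and then 394 and 405 kb. DSCAML1, an adhesion molecule of neurons, held 381 and 384 kb and then 358 and 373 kb. ATP2B2, a plasma membrane calcium pump, went from 366 and 366 kb to 315 and 304 kb. PRDM16, a regulator of brown fat and blood stem cells, was the least changed, with 364 and 367 kb and then 360 and 363 kb, or 99.0% kept on average. None of the 6 carried H3K4me3 at the start. In each of these 6, which were chosen for long DMSO cover in the spike-in lists, the higher GSK126 value was below the lower DMSO value there. In the standard lists only ATP2B2 gave this order, with 366 and 367 kb with DMSO and 364 and 343 kb with GSK126. PRDM16 held 365 and 365 kb with DMSO and 366 and 366 kb with GSK126, and RBFOX3 also lay slightly higher with GSK126. The treatments overlapped for PTPRN2, CDH4 and DSCAML1.

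**Figure D2:**
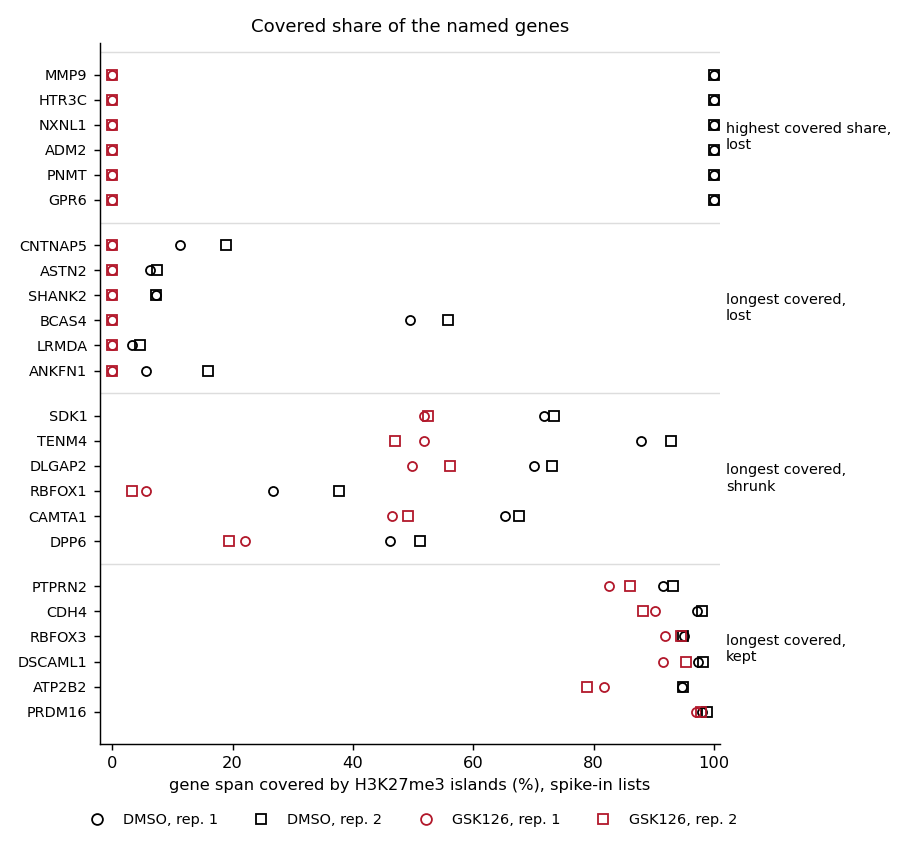
Share of the gene span covered by H3K27me3 islands (x axis, %) in each spike-in list, with DMSO in black and GSK126 in red, circles for replicate 1 and squares for replicate 2. The upper lost genes go from 100% to 0%, and the kept genes lie at 78.9% or more in every library.

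The length of the DMSO island over a gene went with its fate. The longest island had a median of 4.8 kb in lost genes, 15.0 kb in shrunk genes and 29.4 kb in kept genes. Where it was 2 to 5 kb, 72.1% of 1199 genes were lost and 3.67% kept. From 10 to 20 kb, 11.5% of 1289 genes were lost and 57.4% shrunk. At 80 kb or more, 1 of 142 genes was lost, 63.4% were kept, and the median share of cover left was 90.6%. Both replicates gave this order, with 76.4% and 81.5% lost at 2 to 5 kb and 0.704% and 2.11% lost at 80 kb or more. A short island holds few tags, and the part of the tag number in this order was not tested. At equal tag number, 18.8% of the same 1199 genes at 2 to 5 kb were lost and 15.3% kept. Of the same 142 genes at 80 kb or more, 0 were lost and 90.8% kept. Genes not marked with DMSO in both standard lists stayed in these totals, so they are not shares of the genes marked at equal tag number.

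**Figure D3:**
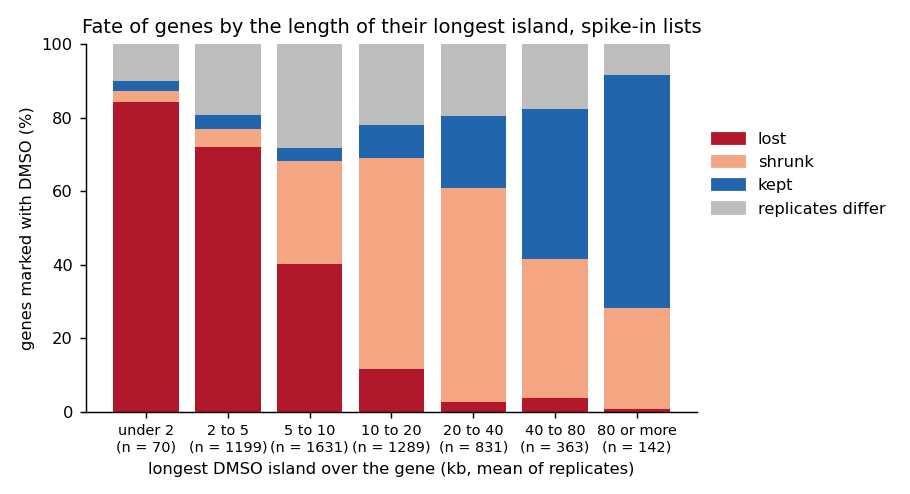
Share of marked genes (y axis, %) in each class by the length of the longest DMSO island over the gene (x axis, kb, mean of replicates), spike-in lists. The lost share goes from 84.3% under 2 kb to 0.704% at 80 kb or more, and the kept share from 2.86% to 63.4%.

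Kept genes were smaller and more fully covered than the others. Their median span was 14.7 kb and their median DMSO cover 97.6%, against 27.7 kb and 17.7% in lost genes and 55.7 kb and 55.4% in shrunk genes. Of the 624 kept genes, 255 were covered from end to end in both DMSO libraries, as were 19 of the 1760 lost genes. Small genes were not only kept more often: under 5 kb, 20.8% were kept, 37.6% lost and 7.73% shrunk. At 250 kb or more these shares were 3.88%, 22.4% and 54.9%.

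The place of the mark within the gene also went with its fate. Of 3501 genes with an island within 1 kb of the start in both DMSO libraries, 20.6% were lost and 16.4% kept. Of 1621 genes marked away from the start, 51.4% were lost and 2.47% kept. In each replicate taken singly the lost share was 33.1 and 33.0 percentage points higher away from the start. Genes marked away from the start had shorter islands, with a median longest island of 6.3 kb against 12.3 kb. Within one range of island length the order stayed. Under 5 kb, 62.4% of start-marked genes were lost and 80.1% of the others, and from 5 to 20 kb the shares were 19.6% and 38.8%. From 20 to 80 kb, 1.19% of 1009 start-marked genes and 13.9% of 137 others were lost, with 29.5% and 7.30% kept. With 2 libraries in each group none of these shares could be tested below 0.05.

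The profile around gene starts gives the cover of each class by distance. In lost genes, 35.3% and 38.9% of starts lay in an island with DMSO and none with GSK126, by the rule that chose them. In shrunk genes, 65.7% and 68.4% of starts were covered with DMSO and 39.1% and 39.9% with GSK126. At 20 kb downstream these shares were 40.5% and 44%, and then 17.2% and 19.3%. In kept genes, 85.4% and 87.3% of starts were covered with DMSO and 80.4% and 85.1% with GSK126. At 20 kb upstream of kept genes, which lies outside the span that chose them, cover went from 56.2% and 59.6% to 38.6% and 40.2%. In the standard lists it was 55.6% and 47.6% there with GSK126. The DMSO values of this profile come from the spike-in lists only, which hold more tags than the standard lists, so that comparison is not at equal tag number.

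**Figure D4:**
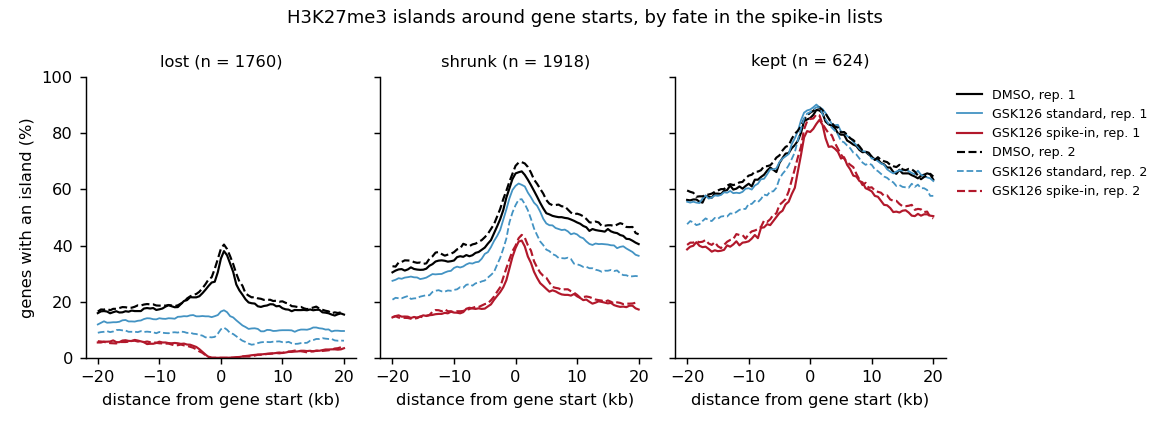
Share of genes with an H3K27me3 island (y axis, %) by distance from the gene start (x axis, kb, upstream negative) for lost, shrunk and kept genes. Black lines are DMSO and red lines GSK126 in the spike-in lists, blue lines GSK126 in the standard lists; solid lines are replicate 1 and dashed lines replicate 2. DMSO in the standard lists is not drawn. In shrunk genes cover at the start went from 65.7% and 68.4% to 39.1% and 39.9%.

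Within the 1743 shrunk genes of at least 10 kb, loss was least at the start. With the gene split into 5 equal parts, part 1 at the start held 51.3% and 51.8% of its DMSO cover, part 3 held 42.2% and 39.4%, and part 5 at the end held 46.98% and 47.4%. Of all gene starts with an island in the DMSO spike-in list, 54.0% of 3768 and 52.0% of 3935 still had one with GSK126, and 22 starts in each replicate were new. In the standard lists 81.5% and 74.9% still had one.

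H3K4me3 at the start was found in 38.9% of lost genes, 30.8% of shrunk genes and 19.7% of kept genes, against 32.3% of all marked genes and 70.0% of genes never marked. Of the 923 genes whose start carried both marks with DMSO, 24.6% were lost and 10.9% kept. Of the 2578 starts with H3K27me3 alone, 19.2% were lost and 18.3% kept. The former had shorter islands, with a median of 9 kb against 13.8 kb. Between 5 and 20 kb the lost shares were 19.1% and 19.8%, and under 5 kb they were 56.6% and 66.2%, so their order did not stay there. From 20 to 80 kb it did, with 2.19% and 0.969%. The order of the kept shares turned round only under 5 kb, with 7.52% with H3K4me3 and 3.72% without it. It stayed from 5 to 20 kb, with 7.04% and 9.73%, and from 20 to 80 kb, with 22.95% and 31.0%. At 80 kb or more the kept shares were 41.2% of 17 genes with H3K4me3 and 71.3% of 108 without it.

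Gene families were described by 47 lists drawn by symbol, which held 2939 genes, 922 of them marked. In the 31 lists with at least 10 marked genes the lost share ran from 0% to 59.2%, and it was above the 31.9% of all marked genes in 9.

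**Figure D5:**
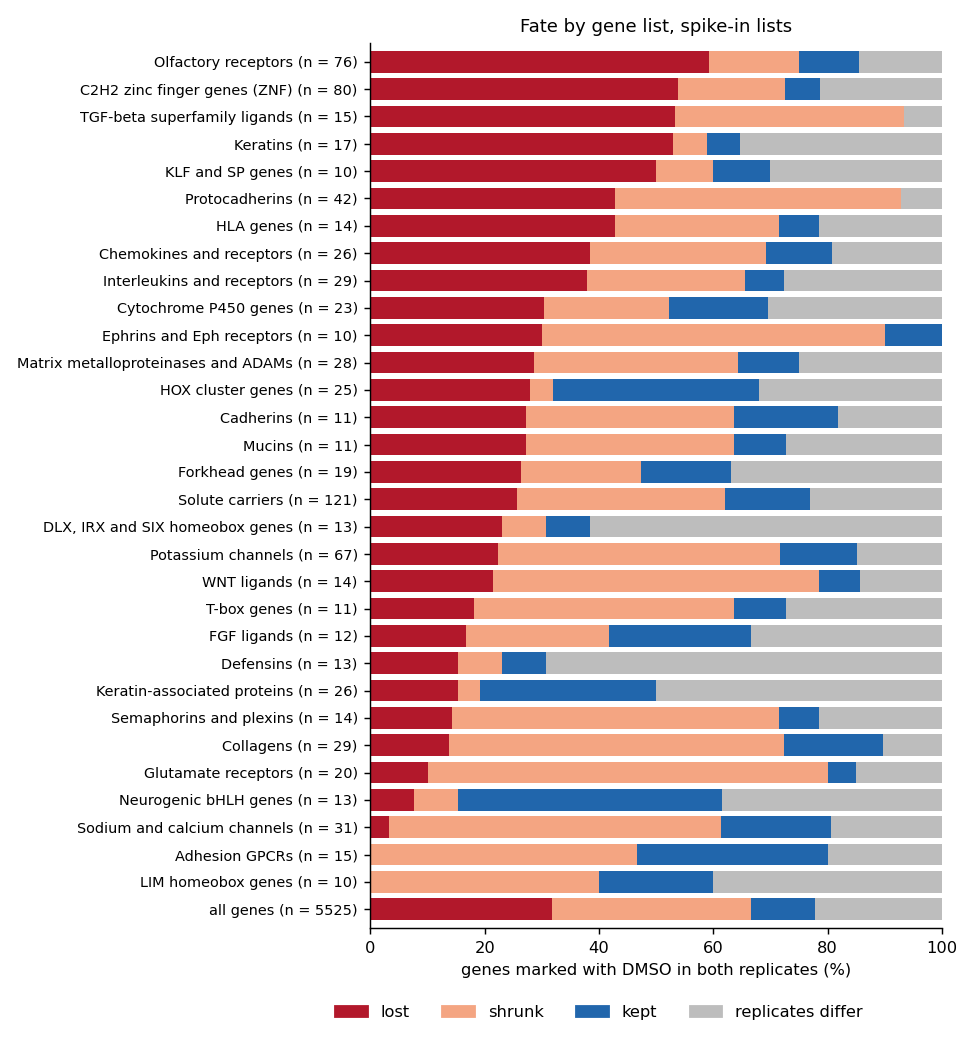
Share of marked genes (x axis, %) lost, shrunk, kept or discordant in the spike-in lists, for each gene list with at least 10 marked genes and for all genes. Olfactory receptors have the highest lost share, 59.2%, and LIM homeobox genes and adhesion G protein-coupled receptors the lowest, 0%.

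Regulators of development were often marked, and the 26.7% of the marked ones that kept the mark compares with 11.3% of all marked genes. Of 207 such genes 116 were marked, with 23 lost, 19 shrunk and 31 kept. The replicates differed for 43, or 37.1% against 22.1% of all marked genes. Such genes were also small, with a median span of 7.67 kb against 32.7 kb. Among all marked genes with a span of 5 to 10 kb, 20.7% were kept, and the part of gene size was not tested. Their median share of cover left was 72.3%, against 31.7% over all marked genes, and their median longest island was 17.4 kb against 9.4 kb. Among the HOX genes, which pattern the body axis, 25 of 39 were marked, with 7 lost and 9 kept. These are 28% and 36%, against 31.9% and 11.3% of all marked genes. The 9 HOXD genes were all marked and 6 were kept with 0 lost, whereas in HOXA 3 of 6 marked genes were lost and 0 kept. HOXD3 held 37.7 and 38.5 kb with DMSO and 33.5 and 34.8 kb with GSK126, and HOXA7 went from 4.07 and 4.27 kb to 0.066 and 0 kb. Members of a HOX cluster share islands and are not independent of each other.

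The kept developmental gene with the longest cover is given here for some of the lists. PAX2, a kidney and eye factor, held 94.9 and 96.5 kb and then 93.7 and 90.8 kb. LMX1B, a LIM homeobox factor of limb and midbrain, held 85.9 and 85.5 kb and then 71.1 and 78.3 kb. Of the 10 marked LIM genes 0 were lost in both replicates and 2, or 20%, were kept. These shares compare with 31.9% and 11.3% of all marked genes. The replicates differed for 4 LIM genes, and 1 was lost in replicate 2. GATA4, a factor of heart and endoderm, held 70.4 kb in both DMSO libraries and 56.5 and 66.1 kb with GSK126, but in the standard lists it went up, from 64.8 and 59.8 kb to 77.2 and 75.2 kb. SOX18, a factor of vessel development, kept all 4.06 kb in all 4 libraries. Of 13 marked neurogenic basic helix-loop-helix genes 6 were kept and 1 was lost, or 46.2% and 7.69%, and the replicates differed for 5. NEUROD2 held 6.84 and 8.24 kb and then 6.81 and 8.24 kb.

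The lost genes with the longest cover in such lists had shorter islands. PAX6, the eye master regulator, went from 6.51 and 7.31 kb to 0. EOMES, a T-box factor of mesoderm and lymphocytes, went from 4.56 and 4.6 kb, and SOX10, a neural crest factor, from 8.63 and 8.43 kb, both to 0. FOXO6 lost 7.8 and 12.2 kb. Their longest islands were between 4.8 and 10.9 kb, against 95.4 kb for PAX2 and 46.4 kb for LMX1B. Of 19 marked forkhead genes 5 were lost and 3 kept, or 26.3% and 15.8%, against 31.9% and 11.3% of all marked genes. Of 13 marked genes of the DLX, IRX and sine oculis homeobox families 3 were lost and 1 kept, with 8 discordant.

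Of 515 ZNF zinc finger genes, many of which encode KRAB repressors of transposons, 80 were marked, or 15.5% against 27.4% of all genes. Of the 80, 43 were lost and 5 kept, which is 53.8% and 6.25% against 31.9% and 11.3% of all marked genes. H3K4me3 lay at the start in 49 of the 80. ZNF20 went from 14.6 and 12.4 kb to 0. ZNF423, a factor of brain and fat development, was unlike it, with 350 and 359 kb and then 286 and 324 kb. Among KLF and SP genes 5 of 10 marked were lost, such as SP3 with 7.82 and 5.82 kb, and KLF14 was kept.

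Signalling genes as a whole were near the background, with 41 of 138 marked genes lost and 17 kept. These are 29.7% and 12.3%, against 31.9% and 11.3% of all marked genes. Of the secreted ligands, 8 of 15 TGF-beta superfamily genes were lost and 0 kept, among them TGFB3, with 17.2 and 21.9 kb before and 0 after. Of 14 WNT genes 3 were lost, such as WNT8A with 3.6 and 4.2 kb, 8 were shrunk and 1 was kept. That gene was WNT1, with 6 and 5.6 kb and then 5.4 and 5.4 kb. Of 12 FGF genes 2 were lost and 3 kept. FGF6, a muscle growth factor, held 19.7 kb with DMSO in both libraries and 18.9 and 19.7 kb with GSK126, and FGF13 went from 6.8 and 13.4 kb to 0. Of the receptors, 0 of 15 adhesion G protein-coupled receptor genes were lost in both replicates and 5 were kept, such as ADGRD1 with 178 and 175 kb and then 162 and 174 kb. FZD1, a receptor for WNT, lost 2.6 and 1.8 kb, and FZD8 kept 2.22 and 3.22 kb in full.

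The lost shares of immune genes lay somewhat above the background, which is 31.9% lost and 11.3% kept among all marked genes. Of 26 marked chemokine genes and receptors 10 were lost and 3 kept, or 38.5% and 11.5%. Of 29 interleukin genes and receptors 11 were lost and 2 kept, or 37.9% and 6.90%. CX3CR1, the fractalkine receptor, went from 9.2 and 8.62 kb to 0, and IL2RA, a chain of the interleukin 2 receptor, from 14.4 and 15.2 kb to 0. CXCL14 kept 9.8 and 10.6 kb of 10.6 kb, within an island of 66.2 kb. Of 14 marked HLA genes 6 were lost and 1 kept, or 42.9% and 7.14%. HLA-DQA1, a class II antigen-presenting chain, went from 5.8 and 10.6 kb to 0 and had none at equal tag number either. HLA-DOA kept all 7.41 kb in all 4 libraries. HLA alleles differ between genomes and tags that mapped to several places had been removed, so values there are uncertain.

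Channels and transporters were mostly shrunk or kept. Of 244 marked genes 112 were shrunk, 50 lost and 35 kept, and the shrunk share of 45.9% compares with 34.7% over all marked genes. These 244 genes were also larger, with a median span of 50.7 kb against 32.7 kb over all marked genes. Among all marked genes, 39.7% were shrunk at a span of 25 to 50 kb and 44.98% at 50 to 100 kb. The part of gene size in the shrunk share was not tested. Of 31 marked sodium and calcium channel genes 1 was lost, CACNB3, with 3 and 2.2 kb. CACNA1B, the pore of N-type calcium channels, held 198 and 196 kb and then 166 and 161 kb. Of 67 marked potassium channel genes 33 were shrunk, 15 lost and 9 kept. KCND3, the pore of an A-type channel, held 215 and 216 kb and then 195 and 187 kb, and KCNE4, an auxiliary subunit, went from 25.3 and 22.3 kb to 0. Of 20 glutamate receptor genes 14 were shrunk. GRM4 held 139 kb in both DMSO libraries and 131 and 138 kb with GSK126. GRIN3A went from 16.8 and 20.1 kb to 0. Of 121 solute carriers 31 were lost and 18 kept, or 25.6% and 14.9%, against 31.9% and 11.3% of all marked genes. SLC6A3, the dopamine transporter, kept 54.6 kb in all 4 libraries, and SLC12A7, a potassium chloride cotransporter, lost 22.2 and 21.9 kb.

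Among adhesion and matrix genes, 37 of 116 marked genes were lost, the same share as the 31.9% of all marked genes, and 53 were shrunk. Of 42 marked protocadherins 18 were lost, 21 shrunk and 0 kept, and 11 were lost at equal tag number. Most lie in clusters of the long arm of chromosome 5 whose overlapping annotated spans share islands. PCDH12, which stands apart from the variable clusters, went from 6.4 and 10.4 kb to 0. Of 29 collagen genes 17 were shrunk, 4 lost and 5 kept. COL23A1 held 336 kb in both DMSO libraries and 306 and 314 kb with GSK126, and COL8A1 went from 32.6 and 33.4 kb to 0. Among metalloproteinases 8 of 28 were lost, MMP9 with them, and ADAMTS2, which trims procollagen, held 226 and 228 kb and then 210 and 211 kb. Of 6 marked claudin genes 4 were lost, such as CLDN14 with 14.8 and 14.2 kb.

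Of the structural genes of skin and hair, 9 of 17 marked keratin genes were lost and 1 kept. These are 52.9% and 5.88%, against 31.9% and 11.3% of all marked genes. KRT77 went from 14.6 and 14.9 kb to 0, whereas its neighbour in the type II cluster KRT73 held 11.8 and 13.0 kb and then 11.8 and 10.8 kb. Of 26 keratin-associated protein genes 4 were lost and 8 kept, and 13 differed between replicates. Olfactory receptors had the highest lost share of the lists with at least 10 marked genes, 45 of 76, with 8 kept, and their median longest island was 5.55 kb. OR9Q1 went from 16 and 23.6 kb to 0 and OR6B3 held 11.0 kb in both DMSO libraries and 10.2 and 11.0 kb with GSK126. Families of near-identical copies, these and the defensin and GAGE genes among them, are uncertain because tags that mapped to several places were not counted.

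Genes used by every cell were seldom marked. Of 323 ribosomal, proteasome, respiratory complex I and histone genes 21 were marked, and none of 67 clustered histone genes was. Of the 21, 11 were lost and 2 kept, or 52.4% and 9.52%, against 31.9% and 11.3% of all marked genes. Some marked members are not general ones: RPL3L is the muscle form of a ribosomal protein, and it went from 8.4 and 11.0 kb to 0. PSMB9, a subunit of the immunoproteasome in the HLA region, went from 5.63 and 4.8 kb to 0 and was lost at equal tag number as well. None of 13 genes for PRC2 subunits and partners was marked. Of 19 PRC1 genes 4 were marked and 3 lost. CBX7, which binds H3K27me3, had 2.6 and 18.4 kb with DMSO and 0 with GSK126, and was lost at equal tag number as well. Of 23 marked cytochrome P450 genes 7 were lost and 4 kept, or 30.4% and 17.4%. A kept one was CYP11B2, the aldosterone synthase, with 9.29 kb in all 4 libraries.

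Genes that gained the mark were few. Of 13745 genes without it in either DMSO spike-in list, 0.0146% had it with GSK126 in both replicates. They were F9, which encodes clotting factor IX, with 3.2 and 3 kb, and METTL1, a tRNA methyltransferase, with 0.347 and 0.747 kb, named after their values were seen. In the standard lists 37 of 14196 genes, or 0.261%, gained it. Among the longest were ITPR2, a calcium release channel, with 23.8 and 7 kb, SCML2, a Polycomb group protein, with 7.21 and 5.4 kb, and ENSG00000288520, with 4.8 and 4.6 kb. Others were ARPP21 with 3.8 and 13.2 kb and CCDC74B with 4.2 and 3.8 kb. These genes were at 0 in both standard DMSO lists. SCML2 had 2 and 1.8 kb in the DMSO spike-in lists, where more tags were counted, and 3.8 and 2.8 kb in the GSK126 spike-in lists. ENSG00000288520 had 3.4 and 4.4 kb and then 2 and 1.6 kb. ARPP21 had 2.6 and 4.4 kb in the DMSO spike-in lists and was lost by the spike-in lists, as were 8 of the 37 genes in all. In the GSK126 spike-in lists ITPR2, ARPP21 and CCDC74B were at 0.

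The cells matched their label as far as the lists reach. H3K4me3 lay at the start of 8 of 10 epithelial markers in both DMSO libraries and of 0 of 6 lymphoid and 0 of 3 endothelial ones. H3K27me3 lay at the start of 0, 3 and 1 of them. Across chromosomes the lost share of marked genes ran from 22.9% on chromosome 17 to 39.3% on chromosome 3, which also had the lowest kept share, 3.70%.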

How the data were processed

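H3K27me3 islands of PC9 cells with DMSO or GSK126 were used as the authors deposited them, 2 lists for each of 4 libraries, with a score for every island. Per the submitters' processing notes, tags were aligned with BWA to hg19 and handled with SAMtools 0.1.18. By the study's methods, tags that mapped to several places were removed, tags were drawn down at random to the number of the smallest sample compared or by the fly tags, and SICER called islands against a random background with 200-bp windows and an E-value of 1, joining H3K27me3 windows across 600 bp and H3K4me3 windows across 200 bp. The deposited score was used for thresholds and to read the tags per window, since it follows from the tag count of an island and that density. Tag totals of the libraries were not used here.

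Islands were laid over GENCODE 44 genes on GRCh37 with Python 3.11.15, NumPy 2.4.6, pandas 2.3.3, SciPy 1.17.1 and Matplotlib 3.10.9. Gene starts are the outermost annotated 5′ ends. Counting steps were tested on simulated islands. Replicates were numbered in accession order and paired by inference from the lists, since both treatments of a replicate share 1 tag density in the standard lists. Members and lists were chosen with earlier results of these data known. Named genes were the 6 with the longest cover in each class, the 6 lost genes with the highest covered share, ties at 100% going to the longer gene, and in each list the longest-covered lost and kept gene. Some of the genes so chosen are not reported here. No p-value across genes was computed, since a class is a comparison of lists. The alternatives were other thresholds, gene spans, gene sets, DMSO lists and replicates. The RefSeq promoter table (GRCh38.p14) had an entry for 15318 of the 20136 genes, too few for a check over classes, so CpG was counted in the GRCh37 genome at every gene start. Of 20 cell type markers 19 were found.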

Additional observations from a re-analysis of the deposited data

How the results depend on the processing

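The log2 ratio of marked genes, and the difference in lost share by start wherever it was computed, kept their sign under the alternatives run, but shrunk genes no longer outnumbered kept genes with a kept threshold of 50% and with 2 kb on either side of the start. Results by island length, H3K4me3 and gene list were not recomputed. Counting only the 10633 genes whose span overlaps no other gene, which are fewer genes, gave 979 lost, 1160 shrunk and 413 kept genes in the spike-in lists, and 238 lost, 1246 kept and 23 gained in the standard lists. A kept threshold of 90% gave 361 kept genes with spike-in, and one of 50% gave 1568 kept and 939 shrunk with spike-in and 3270 kept in the standard lists. With the gene taken as 2 kb on either side of its start, 979 genes were kept and 354 shrunk, the log2 ratio was -0.90, and the difference between genes marked at and away from the start could not be computed. A mark over at least 10% of the span gave 1249 shrunk and 14 gained genes and a log2 ratio of -0.85. The log2 ratio was -0.87 with islands at 2 times the lowest score, -0.73 for genes that overlap no other and -0.67 against the standard DMSO list. The lost share away from the start less that at the start, 30.8 percentage points, was 31.0 with any overlap and on autosomes, 31.1 at 10% of the span, 29.1 with high scores, 28.99 for the gene body, 35.2 for genes that overlap no other and 27.4 against the standard DMSO list. Leaving out a replicate, so that a class needs only the other, gave 2428 to 2596 lost and 924 to 1021 kept genes with spike-in, 913 to 1233 lost, 2325 to 3225 kept and 132 to 186 gained in the standard lists, and differences of 32.97 to 33.15 points. Without the pairing of replicates (no replicate block) the kept count was 616 and the shrunk count 1868 with spike-in, and the standard kept count was 1785. The lost and gained counts, the log2 ratio and the difference by start do not depend on the pairing, so they could not change. Alternatives chosen after seeing the data, at least 2 kb covered with DMSO or islands of at least 2 kb, gave 1372 and 1665 lost genes and 606 and 612 kept genes. The GSK126 spike-in lists hold 23.1% and 19.6% of the DMSO tag density, whose part in the loss of short islands was not tested, and 2 libraries a group allow no p under 0.333.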
